A study of Mus musculus with 2 samples.

Results

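The 27 genes described here encode part of the machinery of GABA signalling in mouse brain: subunits of the GABA-A and GABA-B receptors, proteins that bind or anchor them, enzymes that make and break down GABA, its transporters, and the 2 chloride carriers Slc12a2 and Slc12a5. They were chosen by name and all 27 were found, each as 1 row, among the 33696 features of the deposited count tables. The list does not hold every subunit of these receptors, so each share given below is a share of the listed subunits only.

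GABA is the main inhibitory transmitter of the adult forebrain. It opens GABA-A receptors, chloride channels built from 5 subunits whose make-up sets where they sit and how long each opening lasts, and it acts more slowly through GABA-B receptors, which are pairs of Gabbr1 and Gabbr2 coupled to G proteins. Glutamate decarboxylases make GABA, the vesicular transporter packs it, plasma membrane transporters on neurons, glia and the coverings of the brain take it back up, and the balance of chloride import and export decides which way chloride flows when the channel opens.

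The study holds 2 droplet libraries (10x Genomics 3′ chemistry, which counts unique molecular identifiers, UMIs). The fluconazole library came from Shank3-/- mice that drank fluconazole, an antifungal azole, for 2 weeks, and the vehicle library from Shank3-/- mice on vehicle ("MOCK"). Shank3 encodes a scaffold of excitatory synapses, and both groups carry the loss, so no wild-type animal enters any comparison. The design text names the prefrontal cortex as the tissue, where the samples are labelled brain only. The sources used here do not give the age, sex or number of the mice in a library, or which part of Shank3 is deleted. Shank3 itself was counted at 79.6 CPM (UMIs per 1000000 UMIs) in glutamatergic neurons of the fluconazole library and 72.5 CPM in those of the vehicle library, which checks nothing, because reads near the 3′ end can lie outside the deleted part. The design text speaks of cells and nuclei and the extraction text of nuclei only, so droplets are called barcodes.

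After filtering, 10614 barcodes with 68960830 UMIs remained in the fluconazole library and 12929 barcodes with 68288360 UMIs in the vehicle library. With none of the 27 genes among the genes used for clustering, other marker genes named 13 cell classes and, within neurons, 9 subclasses, all with 50 or more barcodes on either side. Striatal spiny neurons and neuroblasts were among them, cell types not resident in prefrontal cortex. Libraries differed in ways that accompany every comparison. Median UMIs in glutamatergic neurons were 10238 in the fluconazole library and 7271 in the vehicle library. Summed over 82 ribosomal protein genes, the level there was 3382 CPM in the fluconazole library and 4415 CPM in the vehicle library. The microglial genes C1qa, C1qb and C1qc, a gauge of free RNA in neurons, summed to 211 CPM in the fluconazole library and 306 CPM in the vehicle library. The part of these differences in any result was not tested. There is 1 library per treatment, so no test between treatments was possible: each interval is a 95% interval for counting error alone, and differences between mice, dissections and libraries lie outside it. In all, 45 barcode sequences occurred in both libraries, 30 of them after filtering.

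Across the 13 classes the 27 genes differed in where they were highest, and the top class was nearly always the same in both libraries. For 25 of the 27 the class with the highest level was the same in the fluconazole and in the vehicle library. For 25 the levels of the 2 libraries in the top class lay above both levels of the next class. The exceptions were Gabbr2 and Slc12a5, whose first and second classes overlapped. Gabre is among the 25 although its top class, fibroblasts, held only 3.72 CPM in the fluconazole and 2.52 CPM in the vehicle library. These counts were not made over all genes, so they do not show a trait particular to the 27. Striatal spiny neurons held the highest level for 9 genes, astrocytes for 6, glutamatergic neurons for 4, neuroblasts for 3 and fibroblasts for 2, while GABAergic neurons, microglia and oligodendrocytes each held it for 1.

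**Figure D1:**
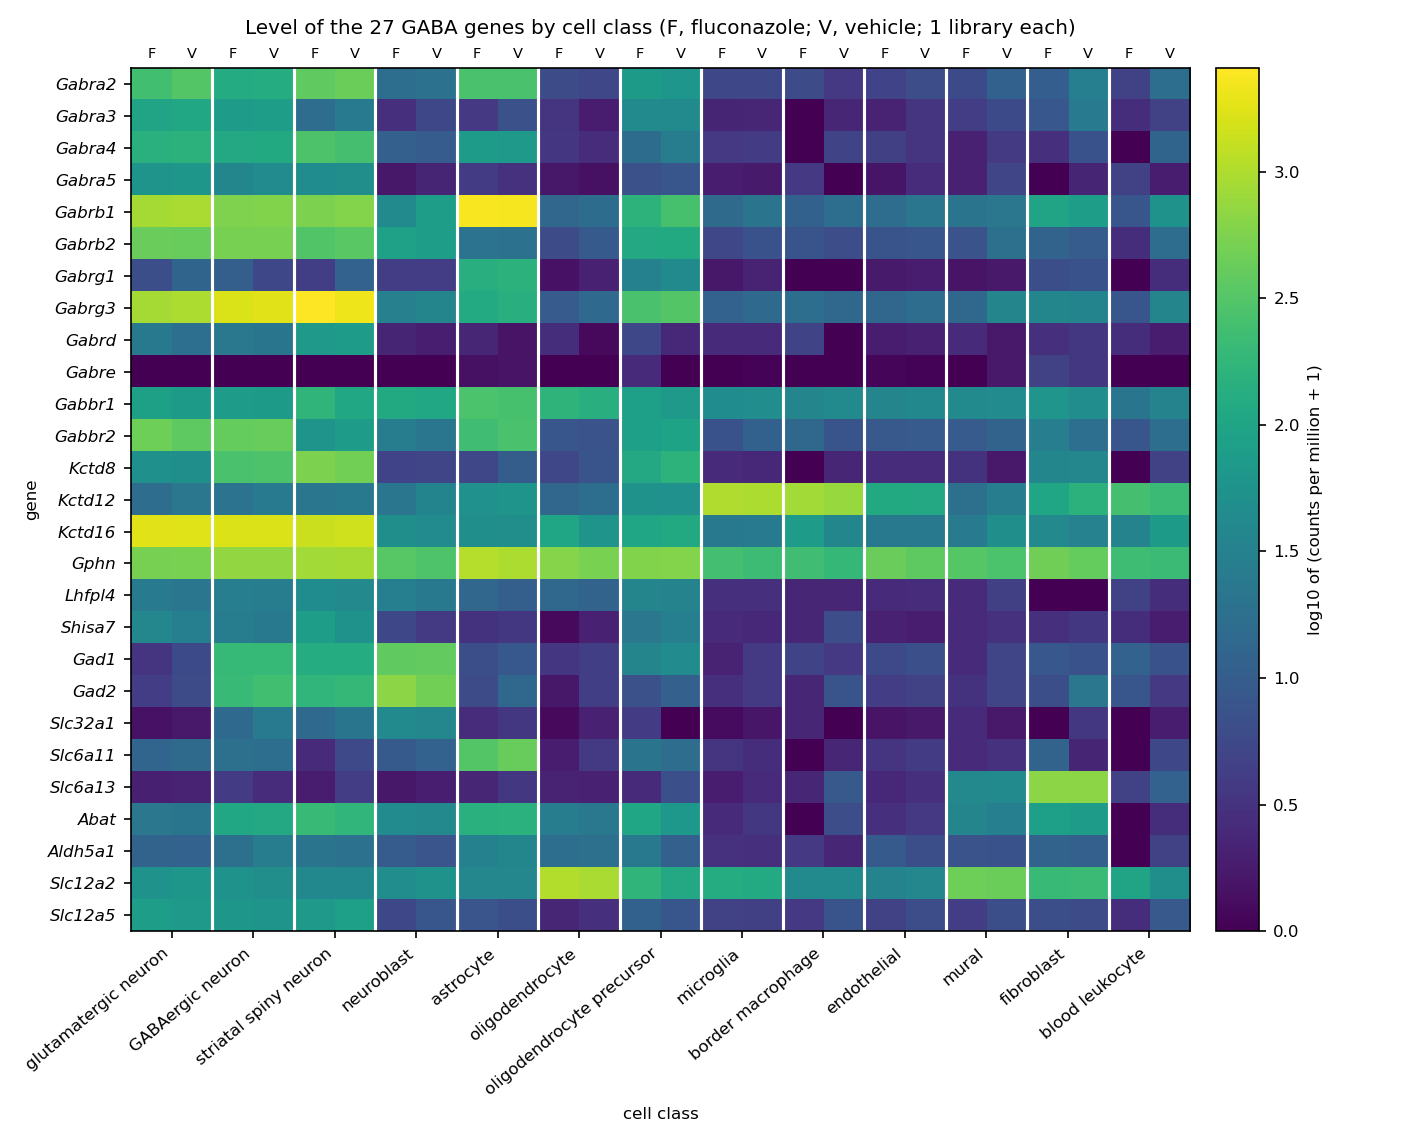
Level of each of the 27 genes (rows) in 13 cell classes (columns), as log10 of CPM plus 1, with the fluconazole library (F) left of the vehicle library (V) in each class. Gabrb1 is brightest in astrocytes, Kctd12 in microglia and border macrophages, Slc6a13 in fibroblasts and Slc12a2 in oligodendrocytes, while Gabre is near 0 in every class.

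Among the alpha subunits, which form most of the GABA and benzodiazepine binding faces of the receptor, Gabra2 and Gabra4 were highest in striatal spiny neurons and Gabra3 and Gabra5 in glutamatergic neurons. Gabra2 stood at 372 CPM in spiny neurons of the fluconazole library and 444 CPM in those of the vehicle library. It was also clearly present in astrocytes, at 266 CPM in the fluconazole and 265 CPM in the vehicle library, against 123 and 127 CPM in GABAergic neurons. Gabra4, a partner of the delta subunit in receptors outside synapses, had 288 CPM in spiny neurons of the fluconazole library and 253 CPM in those of the vehicle library. Gabra3 showed the opposite pattern in the neuron classes, with 96.6 and 109.6 CPM in glutamatergic neurons of the fluconazole and vehicle libraries but 15.4 and 25.0 CPM in spiny neurons. Gabra5, known from receptors outside synapses of pyramidal cells, reached 57.6 CPM in the fluconazole and 62.5 CPM in the vehicle library in glutamatergic neurons. Outside neurons and glia the alpha subunits were at or below 29.0 CPM in every class and library.

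Of the 2 listed beta subunits, which carry part of the GABA binding site, Gabrb1 was highest in astrocytes. It stood at 2402 CPM in astrocytes of the fluconazole library and 2287 CPM in those of the vehicle library, 2.55-fold above the glutamatergic neurons, which had 882 and 959 CPM. Gabrb2 was highest in GABAergic neurons, with 509 CPM in the fluconazole and 516 CPM in the vehicle library, and had 115 and 117 CPM in precursors of oligodendrocytes but 18.8 and 18.2 CPM in astrocytes. In astrocytes Gabrb1 made up 99.2% of the UMIs of the 2 genes in either library. In GABAergic neurons it made up 52.3% in the fluconazole and 53.0% in the vehicle library.

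The gamma, delta and epsilon genes separated in the same way. Gabrg1 was highest in astrocytes, at 138 CPM in the fluconazole and 156 CPM in the vehicle library, and the precursors of oligodendrocytes came next with 30.3 and 41.3 CPM. Among the gamma, delta and epsilon UMIs of astrocytes it held 52.8% in the fluconazole and 52.6% in the vehicle library, while in glutamatergic neurons it held 0.620% and 1.15%. Gabrg3 was highest in spiny neurons, at 2569 CPM in the fluconazole and 2089 CPM in the vehicle library, followed by GABAergic neurons with 1663 and 1816 CPM. Gabrd, the delta subunit of tonic inhibition outside synapses, stood at 69.0 CPM in spiny neurons of the fluconazole and 75.0 CPM of the vehicle library, 3.39-fold above GABAergic neurons. Gabre had 0 UMIs in all 4 neuronal classes of both libraries. In glutamatergic neurons 3 UMIs, taken here as a floor for a count of 0, would be 0.169 CPM in the fluconazole and 0.192 CPM in the vehicle library. The highest level of Gabre, in fibroblasts, rested on 2 UMIs in each library.

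The genes that start closest together differed in the class of their highest level, while their leading classes were largely shared. By RefSeq on GRCm38.p6, Kctd8, Gabrg1, Gabra2, Gabra4 and Gabrb1 lie in that order on chromosome 5. Gabra4 (chr5:71569734-71658308) and Gabrb1 (chr5:71657921-72149572) overlap at their starts on opposite strands. In astrocytes Gabrb1 stood at its highest level of all classes, while Gabra4 stood at 76.6 CPM in the fluconazole and 68.3 CPM in the vehicle library, behind all 3 classes of mature neurons. For both genes, astrocytes and these 3 classes ranked above all others. Gabrg3 (chr7:56716463-57387215) and Gabra5 (chr7:57407669-57591016) are likewise neighbours, and were highest in spiny and in glutamatergic neurons. For both, the 3 classes of mature neurons ranked first and precursors of oligodendrocytes next. The use of strand in counting is not given in the sources used here, so reads in the stretch that Gabra4 and Gabrb1 share cannot be assigned.

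Within neurons the subunit make-up followed the subclasses named by layer and origin. Levels overlapped more here: of the 26 genes with a UMI in neurons, 7 had the same top subclass in both libraries, and for 7 the top subclass lay above the next in both. These counts, too, were not made over all genes. Gabra2 was high in layer 2/3 IT neurons (intratelencephalic, projecting within the cortex and striatum), at 381 CPM in the fluconazole and 461 CPM in the vehicle library. In layer 6 corticothalamic neurons it had 104 and 123 CPM, and in layer 5/6 near-projecting neurons 84.7 and 89.8 CPM. Its share of the listed alpha UMIs was 55.4% in layer 2/3 of the fluconazole and 57.2% of the vehicle library, against 27.8% and 28.1% in layer 6. Between these 2 subclasses Gabra5 had the opposite order. It held 5.70% and 4.77% of alpha UMIs in layer 2/3 of the fluconazole and vehicle libraries and 18.1% and 17.5% in layer 6. Depth alone did not order Gabra5: near-projecting neurons had 44.8 and 33.3 CPM, against 39.2 and 38.4 CPM in layer 2/3. Its level was highest in layer 5 Etv1 or Fezf2 neurons, at 86.4 CPM in the fluconazole and 94.6 CPM in the vehicle library. In direct pathway spiny neurons Gabra3 held 0.636% of alpha UMIs in the fluconazole and 1.92% in the vehicle library, where medial eminence interneurons had 28.1% and 29.2%.

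Layer 5/6 near-projecting neurons stood apart in several genes at once, on 51 barcodes in the fluconazole and 64 in the vehicle library. They had the highest Gabrb1 of the 9 subclasses, 1465 CPM in the fluconazole and 1746 CPM in the vehicle library, and the lowest Gabrb2, 212 and 193 CPM. Gabrb1 accordingly held 87.4% of beta UMIs in the fluconazole and 90.1% in the vehicle library there, and at most 73.7% in any other subclass. Their Gabrg3, at 2337 CPM in the fluconazole and 2375 CPM in the vehicle library, was near that of spiny neurons and more than 3 times that of layer 2/3 neurons, which had 662 and 765 CPM. Kctd8 had 0 UMIs in the fluconazole library, where the floor of 3 UMIs would be 7.47 CPM, and 6.65 CPM from 2 UMIs in the vehicle library.

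**Figure D2:**
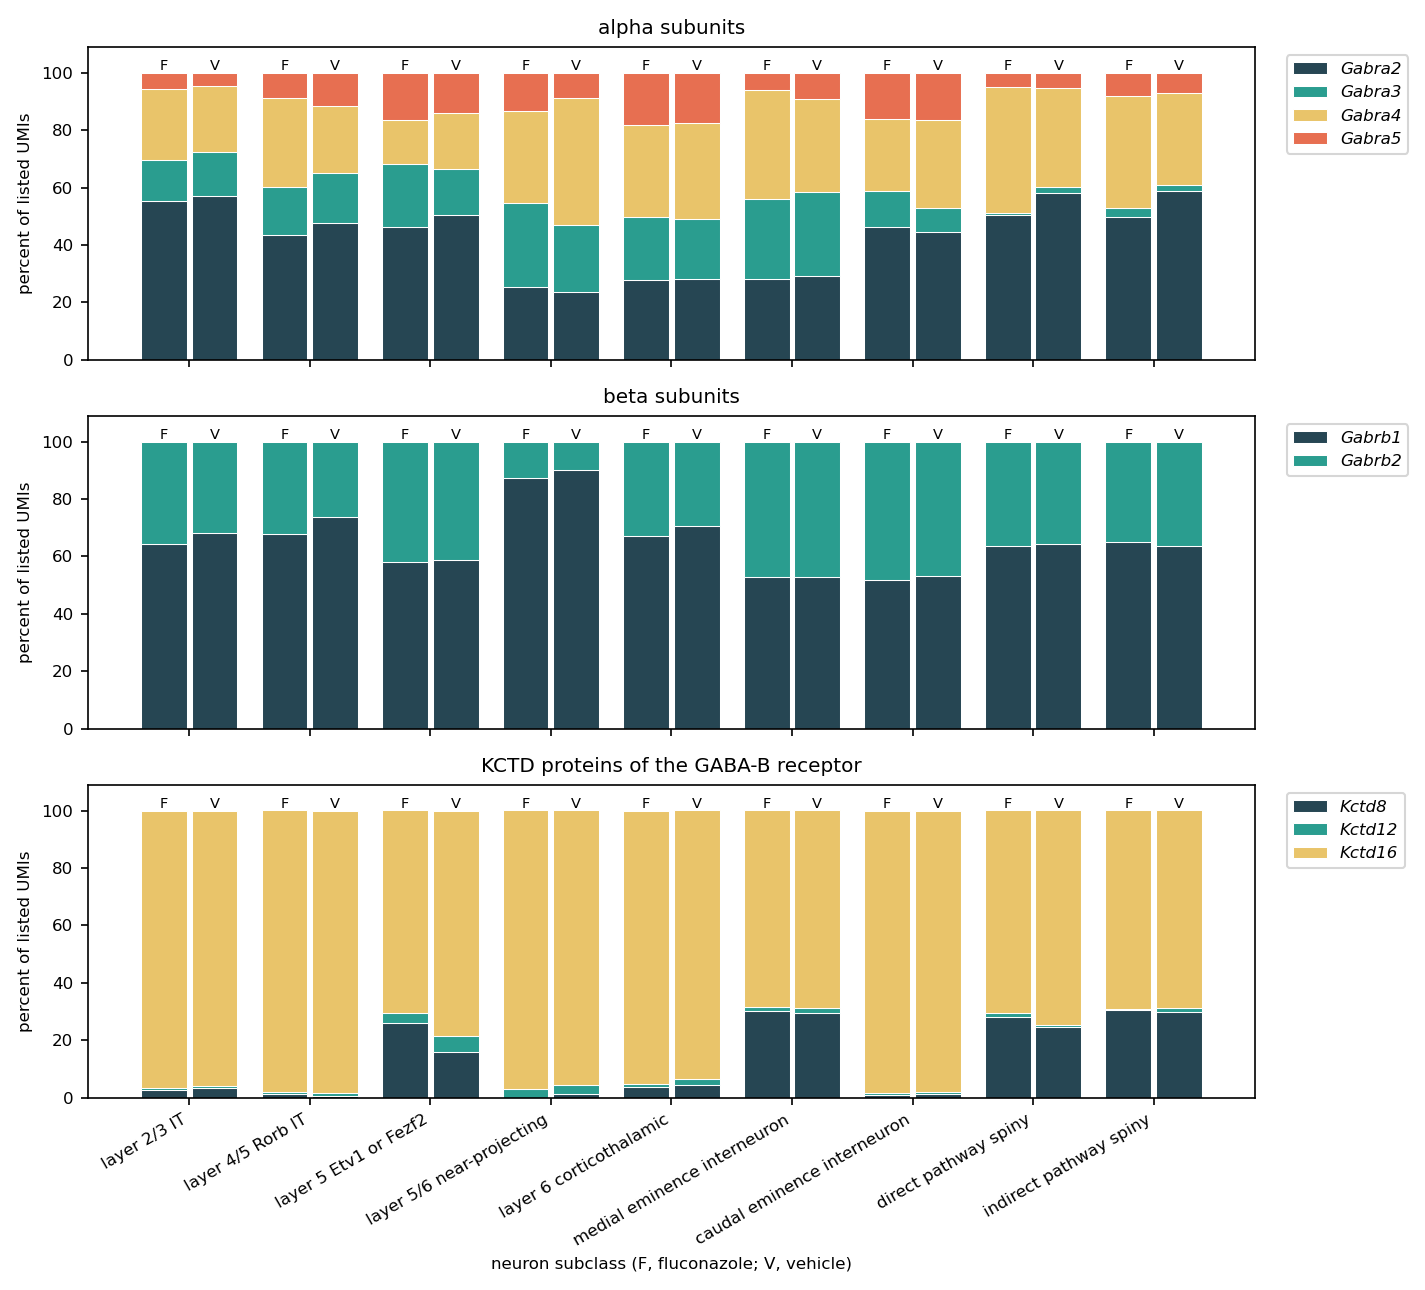
Share of each listed alpha subunit, beta subunit and KCTD gene in the UMIs of its group (percent, vertical axis) by neuron subclass, with the fluconazole library (F) left of the vehicle library (V). Gabra2 takes 55.4% and 57.2% of alpha UMIs in layer 2/3 and about as much in spiny neurons, Gabrb1 87.4% and 90.1% of beta UMIs in near-projecting neurons, and Kctd8 a visible share in layer 5 Etv1 or Fezf2, medial eminence and spiny neurons.

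Interneuron types differed among themselves, here as levels alone because 2 of the 3 types had fewer than 50 barcodes in a library. Pvalb neurons (31 barcodes in the fluconazole and 34 in the vehicle library), fast-spiking cells that inhibit cell bodies, had 13.9 and 44.8 CPM of Gabra2 on 3 and 8 UMIs, against 145 and 123 CPM in Sst neurons, which inhibit dendrites. Gabrd went the other way, with 74.2 CPM in Pvalb neurons of the fluconazole and 39.2 CPM of the vehicle library, against 5.93 and 1.73 CPM in Sst neurons. Lamp5 neurons (32 and 48 barcodes) had the highest Gabrb2 of the 3 types, 1165 CPM in the fluconazole and 1061 CPM in the vehicle library, and the highest Gabra5, 120.3 and 110.3 CPM. Sst neurons had 11.9 CPM of Gabra5 in the fluconazole and 22.5 CPM in the vehicle library.

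The 2 GABA-B subunits were balanced differently in different neuron classes. Gabbr1 binds GABA and Gabbr2 carries the pair to the surface and couples it to G proteins. Gabbr2 stood at 460.1 CPM in glutamatergic neurons of the fluconazole and 371 CPM of the vehicle library, and in GABAergic neurons at 406 and 411 CPM, but in spiny neurons at only 56.8 and 72.7 CPM. Gabbr1 was in those spiny neurons at 168 CPM in the fluconazole and 105 CPM in the vehicle library, above the 84.8 and 71.1 CPM of glutamatergic neurons. Gabbr1 thus held 74.7% of the pair's UMIs in spiny neurons of the fluconazole and 59.0% of the vehicle library, against 15.6% and 16.1% in glutamatergic neurons. Oligodendrocytes had Gabbr1 at 163 CPM in the fluconazole and 139.7 CPM in the vehicle library with Gabbr2 at 7.21 and 6.49 CPM, near the 6.24 and 10.5 CPM of microglia. Astrocytes were high in both genes: Gabbr1 stood at 279 and 258 CPM and Gabbr2 at 227 and 269 CPM in the fluconazole and vehicle libraries.

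The KCTD proteins sit on Gabbr2 and set how fast GABA-B responses start and fade. Their 3 listed genes divided the tissue. Kctd16 was the neuronal member, at 1806 CPM in glutamatergic neurons of the fluconazole and 1737 CPM of the vehicle library, and highest of the subclasses in caudal eminence interneurons, at 3007 and 3213 CPM. It was lowest in layer 5 Etv1 or Fezf2 neurons, at 399.6 CPM in the fluconazole and 473 CPM in the vehicle library. Among interneuron types it reached 5213 CPM in Lamp5 neurons of the fluconazole and 3979 CPM of the vehicle library, and 974 and 1036 CPM in Pvalb neurons. Kctd8 was a gene of spiny and medial eminence neurons, with 592 and 586 CPM in indirect pathway spiny neurons and 408 and 407 CPM in medial eminence interneurons of the fluconazole and vehicle libraries. Caudal eminence interneurons had 26.8 CPM of Kctd8 in the fluconazole and 36.7 CPM in the vehicle library. Kctd12, known for making GABA-B currents desensitise, was a myeloid gene here: microglia had 998 CPM in the fluconazole and 970.3 CPM in the vehicle library and border macrophages 873 and 776 CPM. The 3 classes of mature neurons lay between 15.8 and 25.1 CPM in both libraries. With each barcode thinned to 1500 UMIs, 2.06% of glutamatergic neurons of the fluconazole library and 3.78% of the vehicle library had a Kctd12 UMI, where 70.0% and 68.1% of microglia had one.

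The promoters of Kctd8 and Kctd12 are printed because these genes are paralogs that were highest in different cell classes. Both lie on the minus strand, and each line gives the 250 bases before the RefSeq start (GRCm38.p6), 5′ to 3′ on the gene's strand, with matches to the motifs below in capitals. The Kctd8 window is chr5:69341710-69341959 and the Kctd12 window chr14:102982638-102982887.
Kctd8: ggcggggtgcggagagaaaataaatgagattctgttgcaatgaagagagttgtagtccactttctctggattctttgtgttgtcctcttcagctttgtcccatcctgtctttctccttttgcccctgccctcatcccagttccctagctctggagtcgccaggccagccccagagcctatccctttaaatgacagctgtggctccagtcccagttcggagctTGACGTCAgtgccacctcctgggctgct
Kctd12: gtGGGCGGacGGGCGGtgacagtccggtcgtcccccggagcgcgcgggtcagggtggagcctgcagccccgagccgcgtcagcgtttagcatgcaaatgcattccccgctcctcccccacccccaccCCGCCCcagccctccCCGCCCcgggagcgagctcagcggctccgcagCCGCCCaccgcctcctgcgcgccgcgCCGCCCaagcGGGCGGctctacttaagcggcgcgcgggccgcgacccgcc
Both strands of each window were searched for 4 motifs, and no 2 matches shown share letters. The GC box was searched as GGGCGG and the cyclic AMP response element as TGACGTCA. The core of homeodomain sites was searched as TAATTA. The fourth motif, the TATA box, was searched as TATAAA. Kctd8 held TGACGTCA once and Kctd12 held GGGCGG 7 times. Of all 32851 RefSeq windows of the same length, 1.55% held TGACGTCA, 32.7% held GGGCGG, 4.84% held TAATTA, and TATAAA was found in 12.4%. Guanine and cytosine made up 53.6% of the Kctd8 window and 77.6% of the Kctd12 window, where the median over all windows was 52.4%. Windows were found for 23 of the 27 genes, and 15 of the 23 held GGGCGG in at least 1 window, while Kctd8 alone held TGACGTCA.

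Of the proteins that anchor or accompany GABA-A receptors, Gphn, the gephyrin scaffold that also makes the molybdenum cofactor, was found in all 13 classes, between 183 and 1072 CPM. It alone had at least 100 UMIs in every class. Astrocytes had the most, 1072 CPM in the fluconazole and 991 CPM in the vehicle library. Lhfpl4, which ties receptors to inhibitory synapses, and Shisa7, an auxiliary subunit, were highest in spiny neurons. Shisa7 stood there at 77.9 CPM in the fluconazole and 55.5 CPM in the vehicle library, against 36.4 and 28.4 CPM in glutamatergic neurons. Lhfpl4 had 44.6 CPM in the fluconazole and 39.1 CPM in the vehicle library in spiny neurons, and 0 in fibroblasts of both.

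Synthesis and packing marked the GABAergic lineages, with the highest levels in neuroblasts, the precursors of olfactory interneurons. A cluster of 193 neuroblast barcodes had Top2a, Pbk and Ube2c, genes of dividing cells, among its leading genes. Ribosomal protein genes summed to 72536 and 75618 CPM in neuroblasts of the fluconazole and vehicle libraries. In GABAergic neurons they summed to 3728 and 4877 CPM. The part of this gap in the order of these classes was not tested. Gad1 had 372 CPM in neuroblasts of the fluconazole and 383 CPM of the vehicle library, and 191 and 193 CPM in GABAergic neurons. Gad2 had 659 and 486 CPM in neuroblasts, and 199 and 235 CPM in GABAergic neurons. Slc32a1, the vesicular GABA transporter, had 41.5 CPM in neuroblasts of the fluconazole and 36.9 CPM of the vehicle library, and 13.7 and 23.4 CPM in GABAergic neurons. Caudal eminence interneurons exceeded medial eminence interneurons in Gad1, with 269.7 and 279 CPM against 146 and 151 CPM, and in Gad2, with 289 and 365 CPM against 148 and 172 CPM, in the fluconazole and vehicle libraries. Precursors of oligodendrocytes carried Gad1, at 34.8 CPM in the fluconazole and 42.8 CPM in the vehicle library, and Gad2 at 6.05 and 9.98 CPM. Their share of Gad1 among the UMIs of both enzymes, 85.2% in the fluconazole and 81.1% in the vehicle library, stood against 48.9% and 45.1% in GABAergic neurons. The 15 markers of GABAergic neurons summed in these precursors to 5284 and 5826 CPM, against 19342 and 18875 CPM in GABAergic neurons. The part of GABAergic neuron RNA in the Gad1 of the precursors was not tested.

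In glutamatergic neurons both decarboxylases were low, and Gad1 is set here beside its level in microglia. The part of free RNA in these levels was not tested. Gad1 stood at 2.31 CPM in the fluconazole and 4.92 CPM in the vehicle library, 1.94-fold and 1.79-fold the level in microglia, which do not make GABA. After thinning to 1500 UMIs, 0.266% of glutamatergic neurons of the fluconazole library had a Gad1 UMI and 0.602% of those of the vehicle library, against 0.168% and 0.384% of microglia. Median UMIs before thinning were 10238 and 7271 in glutamatergic neurons and 5998 and 4594 in microglia of the fluconazole and vehicle libraries.

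The 2 listed membrane transporters had the widest gaps between their first and second class. Slc6a11, the transporter of astrocyte processes, stood at 314 CPM in astrocytes of the fluconazole and 418 CPM of the vehicle library, 20.7-fold above the next class, the precursors of oligodendrocytes. Slc6a13, the transporter of the leptomeninges, stood at 653 CPM in fibroblasts of the fluconazole and 663 CPM of the vehicle library, 16.5-fold above mural cells, which had 39.1 and 40.8 CPM. Astrocytes had 1.31 CPM of Slc6a13 in the fluconazole and 2.53 CPM in the vehicle library, at the level of microglia, 0.863 and 1.64 CPM. Fibroblasts had 11.2 CPM of Slc6a11 in the fluconazole and 1.26 CPM in the vehicle library, where markers of astrocytes summed to 2235 and 2220.5 CPM against 12156 and 11939.9 CPM in astrocytes. The part of those markers in the Slc6a11 of fibroblasts was not tested.

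The promoters of these transporters are shown because the genes lie on the plus strand of chromosome 6 and were highest in different classes, astrocytes and fibroblasts. The windows are chr6:114130991-114131240 for Slc6a11 and chr6:121300490-121300739 for Slc6a13, each 250 bases before a RefSeq start (GRCm38.p6), 5′ to 3′, with the same motifs in capitals. RefSeq lists 3 starts for Slc6a13, and the one shown is the first whose window holds no annotated exon.
Slc6a11: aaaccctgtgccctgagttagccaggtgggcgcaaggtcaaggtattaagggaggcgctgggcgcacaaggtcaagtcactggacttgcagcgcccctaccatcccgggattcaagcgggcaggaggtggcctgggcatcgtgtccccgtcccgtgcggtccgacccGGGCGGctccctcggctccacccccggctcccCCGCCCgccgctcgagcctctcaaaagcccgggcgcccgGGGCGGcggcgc
Slc6a13: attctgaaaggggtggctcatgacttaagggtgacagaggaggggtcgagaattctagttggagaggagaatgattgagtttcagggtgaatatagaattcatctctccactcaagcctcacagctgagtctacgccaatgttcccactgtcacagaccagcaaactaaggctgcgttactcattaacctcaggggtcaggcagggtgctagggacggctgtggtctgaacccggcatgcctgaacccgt
Slc6a11 held GGGCGG 3 times and none of the other motifs, and this window of Slc6a13 held none of the 4 motifs, while that of another of its starts held GGGCGG 2 times. Guanine and cytosine made up 71.2% of the Slc6a11 window and 51.6% of the Slc6a13 window.

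**Figure D3:**
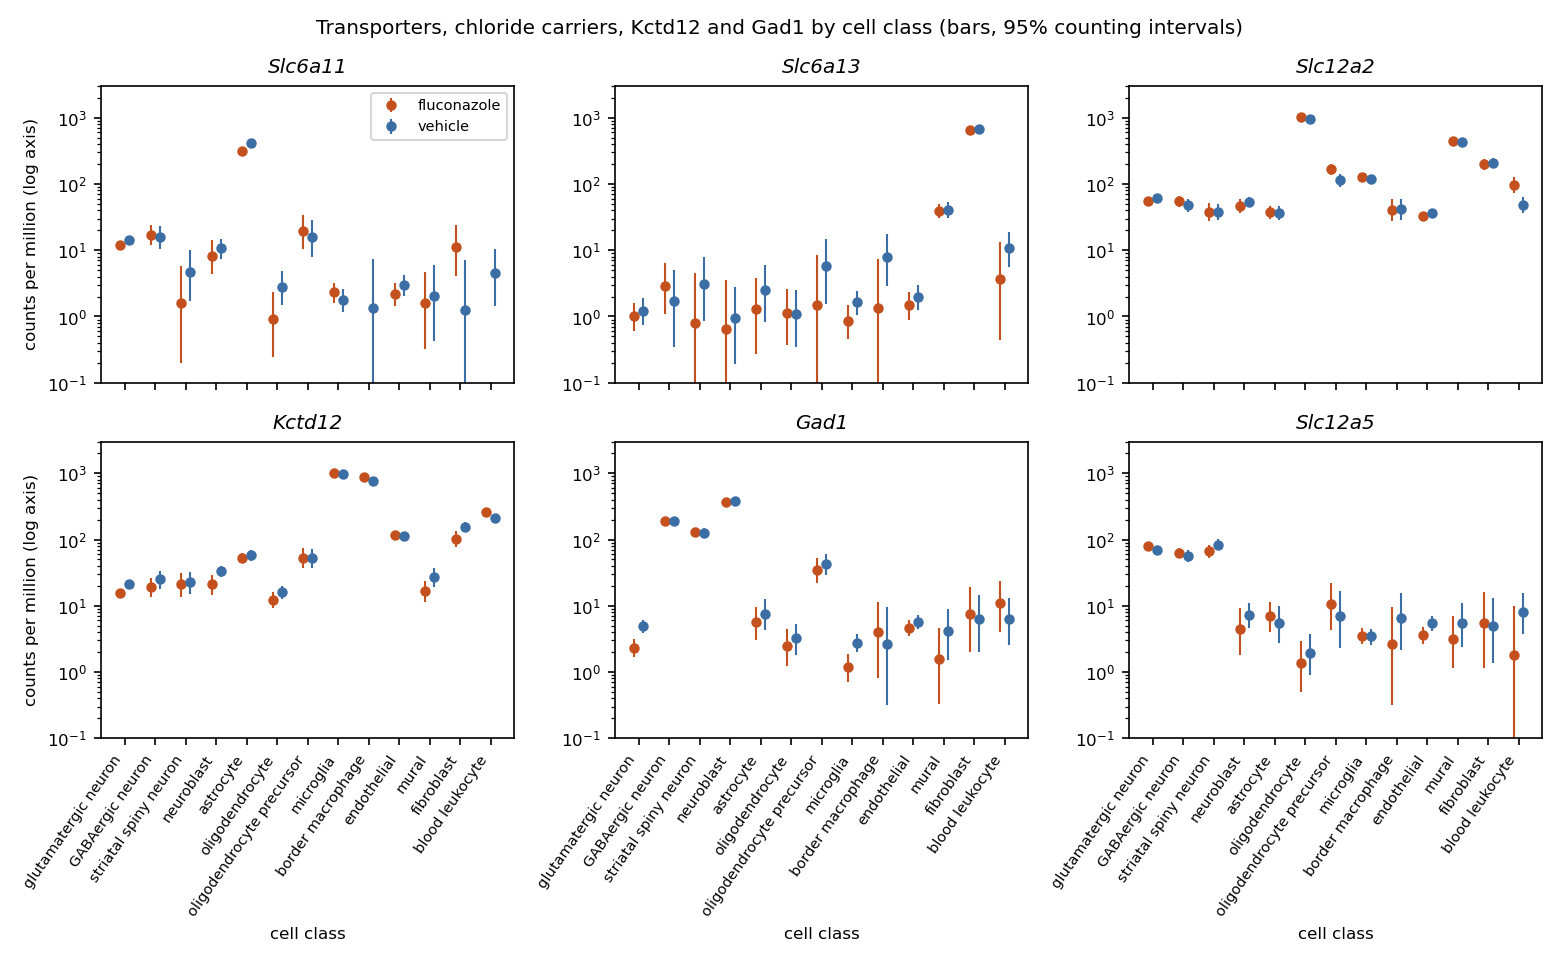
CPM (log axis) of 6 genes in the 13 cell classes, with the fluconazole library (left point) and the vehicle library (right point) in each class and 95% counting intervals; levels of 0 are not drawn. Slc6a11 stands out in astrocytes (314 and 418 CPM), Slc6a13 in fibroblasts (653 and 663 CPM), Slc12a2 in oligodendrocytes (1025 and 961 CPM), and Slc12a5 forms a plateau in the mature neuron classes.

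GABA is broken down by Abat, the transaminase, and Aldh5a1, which oxidises the product for the citric acid cycle. Abat was highest in spiny neurons, at 204 CPM in the fluconazole and 176 CPM in the vehicle library, with 145 and 151 CPM in astrocytes and 111 and 113 CPM in GABAergic neurons. Glutamatergic neurons had 21.2 CPM in the fluconazole and 20.1 CPM in the vehicle library. Fibroblasts, the class with the highest Slc6a13, had 83.7 and 73.0 CPM of Abat. Markers of astrocytes summed in fibroblasts to 2235 CPM in the fluconazole and 2220.5 CPM in the vehicle library. The markers of fibroblasts themselves summed there to 1811 and 2393 CPM. The part of astrocyte RNA in the Abat of fibroblasts was not tested. Aldh5a1 was low throughout, with its highest level in astrocytes at 30.6 CPM in the fluconazole and 35.4 CPM in the vehicle library.

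The chloride carriers were highest in different cells, Slc12a5 in mature neurons and Slc12a2 in oligodendrocytes. Slc12a5, which exports chloride and is the mark of mature neurons, stood between 57.0 and 83.6 CPM in the 3 classes of mature neurons, and at 4.46 CPM in neuroblasts of the fluconazole and 7.25 CPM of the vehicle library. Slc12a2, which imports chloride, was highest in oligodendrocytes, at 1025 CPM in the fluconazole and 961 CPM in the vehicle library, followed by mural cells with 450.0 and 434 CPM. It was lowest in endothelial cells, at 32.9 and 36.7 CPM. Border macrophages and astrocytes also ranked below glutamatergic neurons in the mean of the libraries. Neuroblasts had 46.6 and 53.9 CPM of Slc12a2, close to the 55.3 and 62.1 CPM of glutamatergic neurons in the fluconazole and vehicle libraries. Slc12a5 therefore took 58.9% of the UMIs of both carriers in glutamatergic neurons of the fluconazole and 52.6% of the vehicle library, against 8.75% and 11.9% in neuroblasts.

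The comparison of the libraries asks how these genes stand after fluconazole in mice without Shank3. A gene was counted in a class where both libraries together held at least 100 UMIs, which 26 of the 27 genes met in at least 1 class, Gabre in none. A gene was called past the fold at a log2 ratio of at least 0.5 either way, which is 1.41-fold. Of 149 pairs of gene and class, 18 were past it, 6 with the higher level in the fluconazole and 12 in the vehicle library. Over all genes and the same classes 6.74% of pairs were past it, 2.88% upwards and 3.86% downwards. The median log2 ratio of the counted genes was -0.07 in glutamatergic neurons, -0.02 in GABAergic neurons, -0.07 in spiny neurons and -0.03 in astrocytes. Over all genes with as many UMIs the medians were -0.03, -0.01, -0.01 and -0.01.

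In glutamatergic neurons 24 of the 27 genes were counted, none past the fold upwards, where 2.20% of all genes were, and 3 downwards, where 4.03% were. The 3 were Gabrg1, Gad1 and Gad2, all at low levels in this class. Gabrg1 had 5.64 CPM in the fluconazole and 11.4 CPM in the vehicle library, a log2 ratio of -1.02 (interval -1.39 to -0.66), and stood 8.50-fold and 9.70-fold above microglia. Markers of astrocytes, the class with most Gabrg1, summed to 449 CPM in glutamatergic neurons of the fluconazole and 338 CPM of the vehicle library, and their part in this ratio was not tested. Gad1 had a log2 ratio of -1.09 (interval -1.67 to -0.52) and Gad2, at 3.16 CPM in the fluconazole and 5.11 CPM in the vehicle library, one of -0.69 (interval -1.21 to -0.18). Both were lower beside a lower C1q sum, 211 CPM in the fluconazole and 306 CPM in the vehicle library, and 15 markers of GABAergic neurons summed to 254 and 331 CPM. The part of free RNA in the 2 ratios was not tested.

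The other receptor genes of glutamatergic neurons were all under the fold, and several had intervals that left out 0. Gabra2 had 241 CPM in the fluconazole and 315 CPM in the vehicle library, a log2 ratio of -0.39 (interval -0.45 to -0.33). Gabra3 followed at -0.18 and Gabra4 at -0.09, and Gabra5 stood at -0.12 with an interval that holds 0. Gabbr2 had a log2 ratio of 0.31 (interval 0.26 to 0.36) and Gabbr1 one of 0.25 (interval 0.14 to 0.37). The low accessory genes Shisa7 and Lhfpl4 stood at 0.36 and 0.27, Gabrd at 0.45 (interval 0.22 to 0.68), and the exporter Slc12a5 at 0.20 while the importer Slc12a2 stood at -0.17.

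**Figure D4:**
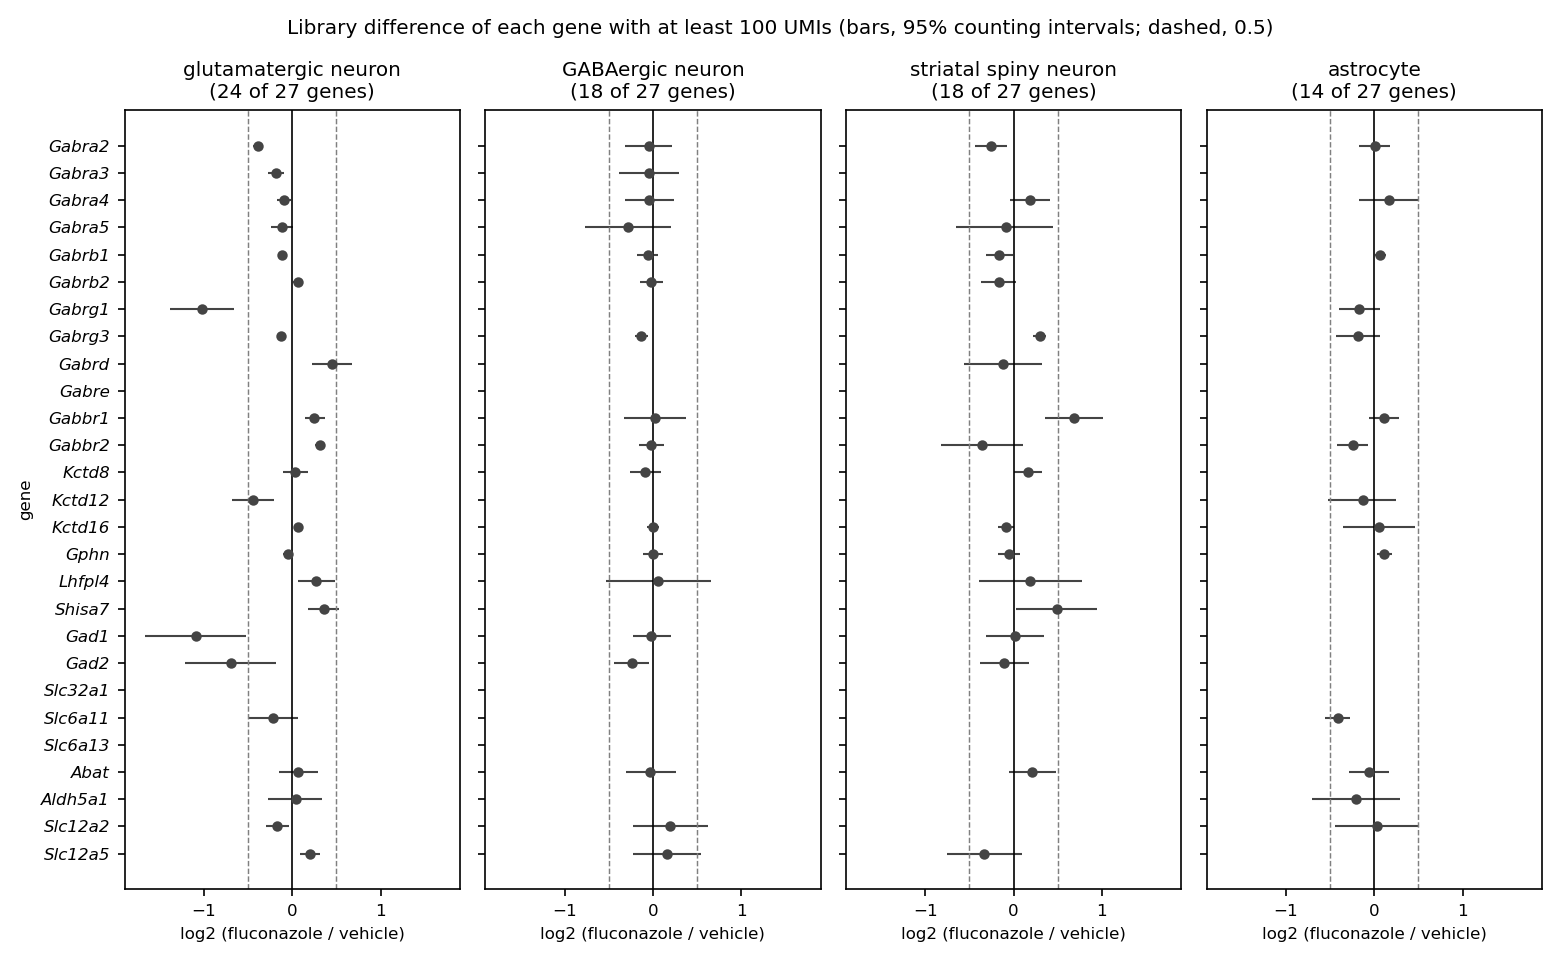
Log2 ratio of the fluconazole over the vehicle library for each gene with at least 100 UMIs in 4 classes, with 95% counting intervals; dashed lines mark 0.5 either way. In GABAergic neurons (18 genes) and astrocytes (14 genes) no point lies past the dashed lines, while Gabrg1, Gad1 and Gad2 do in glutamatergic neurons and Gabbr1 in spiny neurons.

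GABAergic neurons had 18 counted genes, none past the fold in either direction, where 2.49% of all genes were past it upwards and 3.10% downwards. Gad2 was the furthest of those whose interval left out 0, with 199 CPM in the fluconazole and 235 CPM in the vehicle library and a log2 ratio of -0.24 (interval -0.44 to -0.04). Astrocytes had 14 counted genes, again none past the fold, with 1.76% of all genes upwards and 3.22% downwards. Slc6a11 came nearest, with a log2 ratio of -0.41 (interval -0.56 to -0.27), and Gabrb1, the gene with most UMIs there, stood at 0.07 (interval 0.01 to 0.13). Spiny neurons had 18 counted genes and 1 past the fold upwards (4.36% of all genes), Gabbr1, with 168 CPM in the fluconazole and 105 CPM in the vehicle library and a log2 ratio of 0.68 (interval 0.36 to 1.01). None was past it downwards, where 7.13% of all genes were.

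In the other classes the genes past the fold were mostly far below their highest levels. Neuroblasts had 14 counted genes, none upwards (1.65% of all genes) and 2 downwards (3.63%): Gabrb1 at 41.5 CPM in the fluconazole and 81.3 CPM in the vehicle library (log2 ratio -0.97) and Kctd12 at 21.0 and 33.1 CPM (-0.65, and -0.21 with doublets kept). Oligodendrocytes had 10 counted genes, 1 upwards (2.42%) and 1 downwards (1.96%). Kctd16 was the one upwards, with 103 CPM in the fluconazole and 57.7 CPM in the vehicle library, a log2 ratio of 0.83 (interval 0.61 to 1.06). The barcode with most Kctd16 UMIs held 3.51% of them in the fluconazole and 3.00% in the vehicle library. Markers of glutamatergic neurons, the class with most Kctd16, summed to 60.0 CPM in oligodendrocytes of the fluconazole and 56.0 CPM of the vehicle library. Gabrg3 was the one downwards, at 8.57 and 13.6 CPM (-0.67).

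Precursors of oligodendrocytes had 10 counted genes, 2 upwards (5.96% of all genes) and 1 downwards (5.03%). Abat stood at 103 CPM in the fluconazole and 64.1 CPM in the vehicle library (log2 ratio 0.68), Slc12a2 at 168 and 113 CPM (0.58) and Gabrb1 at 160.4 and 259 CPM (-0.69). The log2 ratio of Gabrb1 was 0.03 with every barcode thinned to 1500 UMIs. Microglia had 11 counted genes, none upwards (1.78%) and 2 downwards (2.46%), Gabrb2 at 4.38 CPM in the fluconazole and 6.28 CPM in the vehicle library (-0.52, and -0.06 as a mean over clusters) and Gabbr2 at 6.24 and 10.5 CPM (-0.76). Markers of glutamatergic neurons summed there to 70.1 and 83.1 CPM, and their part in those ratios was not tested. Endothelial cells had 13 counted genes, 1 upwards (1.77%), Aldh5a1 at 8.11 and 5.65 CPM (0.52), and 1 downwards (2.43%), Slc12a5 at 3.61 and 5.47 CPM (-0.60).

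Mural cells had 6 counted genes, none upwards (2.78% of all genes) and 1 downwards (3.32%), Kctd16 at 24.3 CPM in the fluconazole and 49.1 CPM in the vehicle library (log2 ratio -1.01). In the vehicle library 32.4% of its UMIs in mural cells lay in 1 barcode, against 8.70% in the fluconazole library. Fibroblasts had 6 counted genes, none upwards (6.83%) and 1 downwards (11.3%), Kctd12 at 102 and 155 CPM (-0.60), with 27.3% and 23.6% of the UMIs in 1 barcode. Blood leukocytes had 3 counted genes, 1 upwards (11.0%), Slc12a2 at 97.9 CPM in the fluconazole and 48.5 CPM in the vehicle library (1.01), and none downwards (9.09%). Gphn, the gene counted in every class, had a log2 ratio of 0.25 in endothelial cells (interval 0.19 to 0.31), 0.21 in oligodendrocytes (0.13 to 0.29), 0.18 in microglia (0.11 to 0.25) and 0.11 in astrocytes (0.03 to 0.20). In glutamatergic neurons it stood at -0.05 (interval -0.10 to -0.01), and in precursors of oligodendrocytes at -0.03 (-0.23 to 0.18), 582 CPM in the fluconazole and 593 CPM in the vehicle library. Border macrophages had 2 counted genes and none past the fold, where 4.63% of all genes were past it upwards and 4.78% downwards.

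By neuron subclass 10 of 131 counted pairs were past the fold, where 8.27% of pairs over all genes were, 3.70% upwards and 4.56% downwards. In layer 2/3 IT neurons 21 genes were counted, with 1 upwards (3.18% of all genes) and 1 downwards (4.44%). Gabrd had 42.8 CPM in the fluconazole and 25.3 CPM in the vehicle library, a log2 ratio of 0.76 (interval 0.42 to 1.10). Gabrg1 had 8.32 and 17.3 CPM, a log2 ratio of -1.05 (interval -1.63 to -0.49). In layer 4/5 Rorb IT neurons 18 genes were counted, with 2 upwards (3.20%) and 1 downwards (4.67%). Gabrd again stood higher, 19.2 CPM in the fluconazole and 10.9 CPM in the vehicle library (0.82, interval 0.22 to 1.44), as did Kctd8, 21.5 and 10.9 CPM (0.99, interval 0.40 to 1.59). Gabra5 stood lower there, 44.8 CPM in the fluconazole and 68.3 CPM in the vehicle library (-0.61, interval -0.91 to -0.31), and at -0.26 with doublets kept. Layer 4/5 holds 2 sub-clusters, with 138 and 158 barcodes in the fluconazole and 247 and 151 in the vehicle library. Within them, as looked up after the data were seen, the log2 ratio of Gabrd was 0.99 and 0.49, and the interval of the second holds 0. That of Gabra5 was -0.55 and -0.33, again with 0 inside the second interval, and that of Kctd8 0.21, with 0 inside its interval, and 0.90.

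Gabrd was thus higher in the fluconazole library in both upper subclasses, and in the 3 other glutamatergic subclasses it had under 100 UMIs. Layer 6 corticothalamic neurons had 15.0 CPM in the fluconazole and 8.83 CPM in the vehicle library, on 47 and 17 UMIs. In direct pathway spiny neurons Gabrd stood at 70.9 CPM in the fluconazole and 83.3 CPM in the vehicle library (log2 ratio -0.23, interval -0.79 to 0.32). No barcode held more than 2.73% of the Gabrd UMIs of layer 2/3 in either library. After thinning, 4.90% of layer 2/3 barcodes of the fluconazole library had a Gabrd UMI and 3.47% of those of the vehicle library, with overlapping intervals (3.06% to 7.39% and 2.07% to 5.43%). In microglia 0.126% and 0.160% had one.

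In layer 5 Etv1 or Fezf2 neurons 15 genes were counted, with 1 upwards (3.50% of all genes) and 1 downwards (5.40%). Kctd8 had 146 CPM in the fluconazole and 95.7 CPM in the vehicle library (log2 ratio 0.61), and Gabra4 had 80.2 and 130.4 CPM (-0.70). Kctd8 did not keep 1 direction across subclasses: in layer 2/3 it had 74.7 CPM in the fluconazole and 92.8 CPM in the vehicle library, a log2 ratio of -0.31 (interval -0.52 to -0.11). In layer 6 corticothalamic neurons 17 genes were counted, with 1 upwards (3.68%) and none downwards (3.23%). It was Lhfpl4, 23.1 and 16.1 CPM, whose interval of -0.11 to 1.17 holds 0. Near-projecting neurons had 5 counted genes and none past the fold (4.56% upwards and 3.40% downwards over all genes).

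Medial eminence interneurons had 16 counted genes and none past the fold, where 3.03% of all genes were past it upwards and 3.15% downwards. Caudal eminence interneurons had 12 counted genes, none upwards (3.91%) and 1 downwards (4.74%). It was Gabrg3, with 1366 CPM in the fluconazole and 2073 CPM in the vehicle library, a log2 ratio of -0.60 (interval -0.72 to -0.48), and of -0.34 with barcodes thinned to 1500 UMIs. Within the 3 sub-clusters with 10 or more barcodes in each library it stood at -0.62, -0.29 and -0.24, the last with an interval of -0.52 to 0.05. In medial eminence interneurons the same gene had 1833 CPM in the fluconazole and 1692 CPM in the vehicle library (0.12, interval 0.03 to 0.20). Direct pathway spiny neurons had 15 counted genes, 1 upwards (7.07%), Gabbr1 with 175 CPM in the fluconazole and 103 CPM in the vehicle library (0.76), and none downwards (7.80%). The libraries divide differently over its 3 sub-clusters, with 56, 12 and 26 barcodes in the fluconazole and 53, 68 and 20 in the vehicle library. Within them the log2 ratio of Gabbr1 was 0.76, 0.72 and 1.05, and the intervals of the second and the third hold 0. Indirect pathway spiny neurons had 12 counted genes and none past the fold (5.23% upwards and 6.83% downwards over all genes), with Gabbr1 at 143 and 111 CPM.

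Gabra2 was counted in 8 of the 9, and in all 8 its level was lower in the fluconazole library, by a log2 ratio between -0.47 and -0.04. In caudal eminence interneurons, where it was -0.04, it took the other sign in 3 of 8 alternatives, up to 0.28 with doublets kept. The interval left out 0 in layer 2/3 (381 and 461 CPM), layer 4/5 (224 and 283 CPM), layer 5 (244 and 338 CPM) and direct pathway spiny neurons (331 and 442 CPM), each given as fluconazole and then vehicle. It held 0 in both interneuron subclasses, layer 6 and the indirect pathway. Among the interneuron types, Gabra2 had 145 CPM in the fluconazole and 123 CPM in the vehicle library in Sst neurons. Lamp5 neurons had 120.3 and 110.3 CPM, and Pvalb neurons 13.9 and 44.8 CPM. In astrocytes, where Gabra2 is as high as in many neurons, the log2 ratio was 0.01. Gabrb1 was lower in the fluconazole library in 8 of the 9 subclasses, between -0.31 and 0.02, and Gad2 in all 4 in which it was counted, between -0.34 and -0.14. These counts of subclasses with the same sign were not made over all genes. All subclasses come from the same pair of libraries, so their agreement is not replication.

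**Figure D5:**
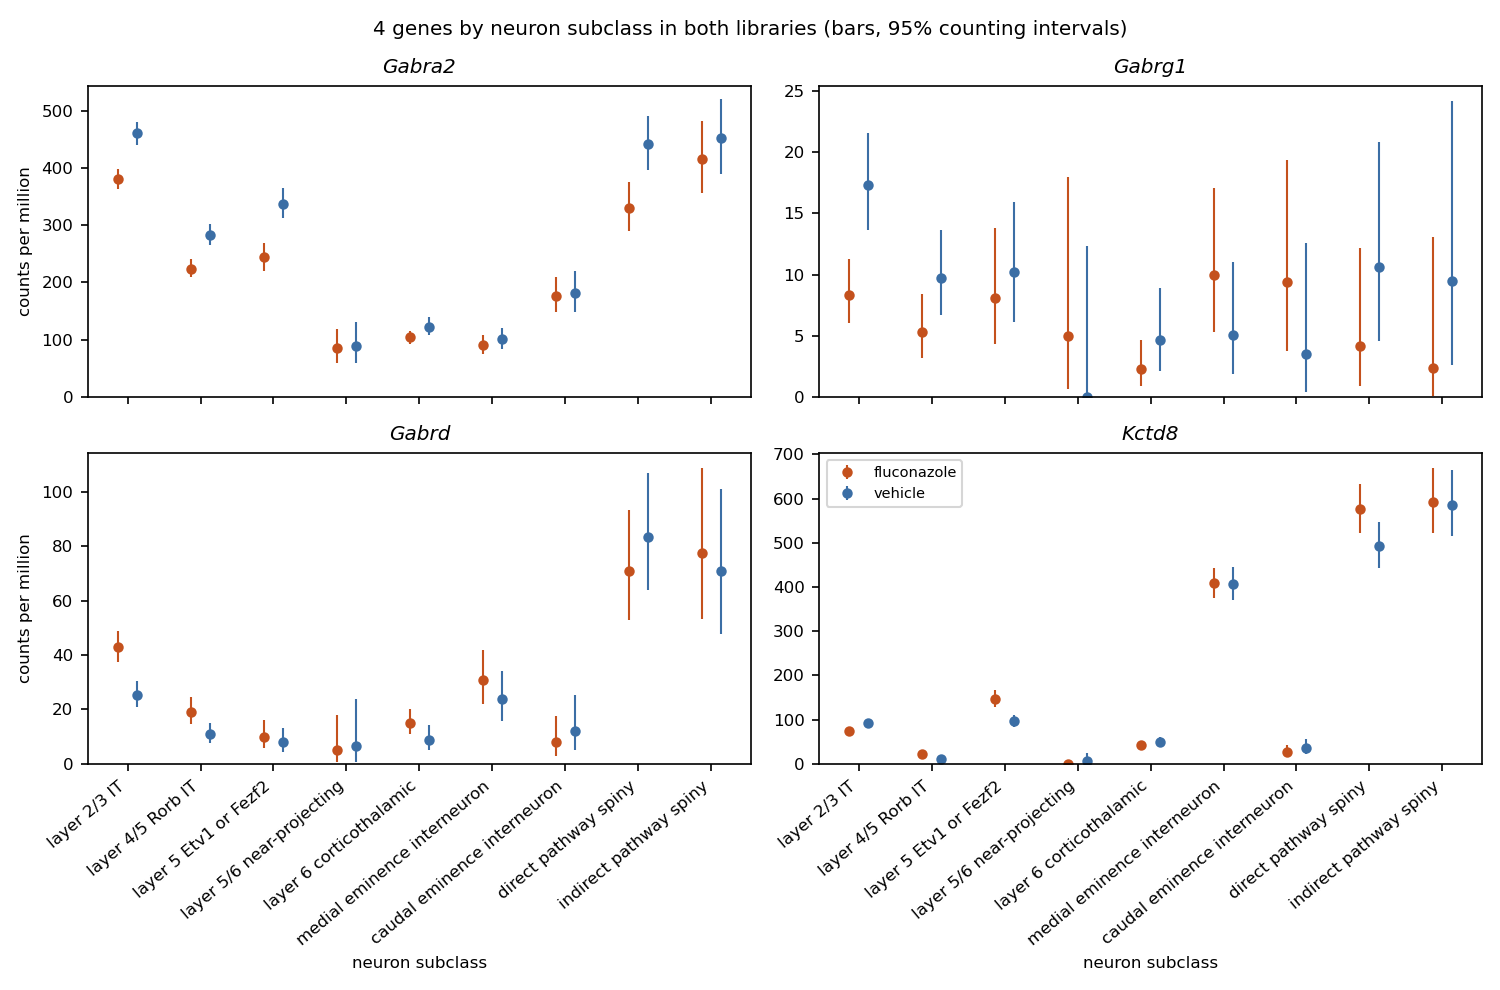
CPM of Gabra2, Gabrg1, Gabrd and Kctd8 by neuron subclass, with the fluconazole library (left point) and the vehicle library (right point) and 95% counting intervals. Gabra2 lies lower in the fluconazole library in layers 2/3 to 5 and in direct pathway spiny neurons, Gabrd higher in layer 2/3 (42.8 and 25.3 CPM), and Kctd8 spans 0 CPM in near-projecting to 592 CPM in indirect pathway spiny neurons of the fluconazole library.

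The 30 other genes of the system that were listed alongside, scaffolds and trafficking factors, further subunits, transporters of precursors, and chloride carriers with their kinases, were counted in the same way. In glutamatergic neurons 23 of the 30 had at least 100 UMIs, none was past the fold upwards (2.20% of all genes) and 1 was downwards (4.03%), Dbi, whose peptide binds GABA-A receptors. Dbi had 21.5 CPM in the fluconazole and 31.4 CPM in the vehicle library, a log2 ratio of -0.54 (interval -0.74 to -0.35). The next largest were Plcl2, a binding partner of receptor trafficking proteins, at 0.44 (313 and 231 CPM) and Glul, the glutamine synthetase of astrocytes, at -0.33 (32.8 and 41.4 CPM). The median over the 23 was 0.08. In GABAergic neurons 19 were counted and none was past the fold, where 2.49% of all genes were upwards and 3.10% downwards. Astrocytes likewise had 19 counted and none past it, with 1.76% and 3.22% over all genes. The class with most past it was fibroblasts, with 2 of 13 upwards (6.83%), Nsf and Stk39, and 3 downwards (11.3%), Gabarap, Dbi and Slc38a1. Stk39, a kinase of the chloride carriers, had 1487 CPM there in the fluconazole and 982 CPM in the vehicle library, a log2 ratio of 0.60 (interval 0.45 to 0.74). Mural cells had 1 of 17 upwards (2.78%), Kctd12b, and 2 downwards (3.32%), Slc38a2 and Glul. Precursors of oligodendrocytes had 1 of 13 upwards (5.96%), Glul, and 1 downwards (5.03%), Stk39. Oligodendrocytes had 1 of 18 upwards (2.42%), Gabrr2. The genes named outside glutamatergic neurons were chosen after their values were seen.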

How the data were processed

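The deposited matrices hold raw UMI counts, stored as integers per the file headers. They list called barcodes, each with 500 UMIs or more. Cell Ranger appears as 8.0.1 in the matrix headers but as 9.0.0 in the submitters' processing notes, which also list mm10, R 4.0.3 and Seurat 4.0.0. The annotation, the counting of introns and the use of strand are not given in the sources used here.

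From these counts, barcodes were kept if 500 genes or more were detected and mitochondrial UMIs made up 5% or less, and doublets were called with Scrublet in scanpy 1.11.5 (expected rate 8%; 514 of 12637 fluconazole and 574 of 14924 vehicle barcodes) and left out. Clustering was joint, with no batch correction (30 principal components, 15 neighbours, Leiden with leidenalg 0.10.2 at resolution 1.0, 46 clusters of which 38 were named). The 27 genes and the 30 further genes of the system were left out of clustering. Classes took their names from marker genes, by rules written with the clusters at hand. Sub-clusters of neurons with markers of another class were left out as mixed.

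UMIs were summed per class and library and divided by the total (CPM). Intervals are exact at 95%: Poisson for CPM, Clopper-Pearson for shares, conditional binomial for log2 ratios of the fluconazole over the vehicle library. They treat UMIs as independent and cover counting error only. CPM of different genes are not per length, so genes are compared between cell types, not with each other. Shares within a group compare the same gene between cell types. Every gene with at least 100 UMIs in a class entered the background shares. Genes are described in the class and subclass of their highest and lowest level, and given values in both libraries where past the fold with an interval that leaves out 0. Of the 30 further genes, the 3 with the largest ratios in glutamatergic neurons are named. Genes under the fold that are named besides were chosen after their values were seen. Genes, lists and rules were chosen with earlier results of these data known. Ratios and intervals were tried on simulated Poisson sums, which hold no spread between barcodes or mice. Such sums meet the assumption of the intervals, so they check the calculation and not whether that assumption holds here. Promoters and positions come from RefSeq (GRCm38.p6), and exons from GENCODE vM21. Alternatives were other scaling, minimum, fold, filter, doublet, thinning, weighting, free RNA and clustering choices. Python 3.11.15, numpy 2.4.6 and scipy 1.17.1 were used.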

Additional observations from a re-analysis of the deposited data

Results flagged for a closer look

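Some genes stood on opposite sides in 2 cell types, with 1 of the 2 past the fold and both counting intervals clear of 0. Each difference between cell types was not tested, since there is 1 library per treatment. How many of all genes meet this rule was not counted, and the furthest cell type on either side is given. Kctd16 was past the fold both ways, with a log2 ratio of 0.83 in oligodendrocytes and -1.01 in mural cells. In mural cells of the vehicle library 1 barcode held 32.4% of its UMIs, and the interval does not cover such clumping. Among receptor subunits, Gabrb1 stood at 0.07 in astrocytes and -0.97 in neuroblasts, Gabrb2 at 0.06 in glutamatergic neurons and -0.52 in microglia, and Gabrg3 at 0.30 in striatal spiny neurons and -0.67 in oligodendrocytes. Gabbr2 stood at 0.31 in glutamatergic neurons and -0.76 in microglia, and Kctd12 at 0.17 in border macrophages and -0.65 in neuroblasts. Gad2 stood at 0.44 in neuroblasts and -0.69 in glutamatergic neurons. Slc12a2 stood at 1.01 in blood leukocytes and -0.17 in glutamatergic neurons, and Slc12a5 at 0.20 in glutamatergic neurons and -0.60 in endothelial cells. Between neuron subclasses, Gabra4 stood at 0.42 in indirect pathway spiny neurons and -0.70 in layer 5 Etv1 or Fezf2 neurons. Gabrg3 stood at 0.37 in direct pathway spiny neurons and -0.60 in caudal eminence interneurons, and Kctd8 at 0.99 in layer 4/5 Rorb neurons and -0.31 in layer 2/3 neurons. Several of these values fell under the fold at an alternative setting. Gabrb2 in microglia reached -0.06, Kctd12 in neuroblasts -0.21, Gad2 in glutamatergic neurons -0.24 and Gabrg3 in caudal eminence interneurons -0.34.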

How the results depend on the processing

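No top class differed among the 7 classes and 23 genes left by the stricter filter, the 10 classes and 26 genes with the rough free RNA correction, or all 13 classes with the 27 genes among the clustering genes, and with doublets kept or at the other resolutions 1 did, Gabbr2 or Slc12a5. With doublets kept, 7 of the 9 subclasses had 50 barcodes, and 12 of 15 genes kept their top subclass. Of the 18 pairs of gene and class past the fold, 6 remained among 10 at 1000 genes and 1% mitochondrial UMIs, and 1 among 5 after thinning to 1500 UMIs. Fewer genes reach 100 UMIs after thinning, and most of the 5 were not among the 18. The cause of this difference was not tested. Counts of such pairs over classes were 55 at a minimum of 20 UMIs, 1 at 400 UMIs, 38 at a fold of 0.3 and 4 at a fold of 1. Over subclasses the 10 pairs compare with 2 after thinning, of which 0 were among the 10, 32 at 20 UMIs, 2 at 400 UMIs, 34 at a fold of 0.3 and 1 at a fold of 1. Shares over all genes were not computed at any alternative setting. The counts therefore show only how the number of calls changes with the setting. The median log2 ratio in striatal spiny neurons was 0.03 after thinning, and the Gabrb1 log2 ratio in oligodendrocyte precursor barcodes turned to 0.03 there; the cause was not tested. Gabrd in layer 2/3 stayed between 0.73 and 0.78 over 8 alternatives, and in layer 4/5 fell under the fold once, at 0.48. Among the 8 were the minimum of 20 UMIs and the keeping of mixed sub-clusters, which leave subclass ratios unchanged. Thinning and the minimum of 400 UMIs gave no value for Gabrd in either subclass, because it fell under the minimum of UMIs. Other calls fell under the fold: Gad2 in glutamatergic neurons at -0.24, Gabra5 in layer 4/5 at -0.26, Kctd12 in neuroblasts at -0.21 and in fibroblasts at -0.37, Gabrb2 in microglia at -0.06, Gabrg3 in caudal eminence interneurons at -0.34 and Aldh5a1 in endothelial cells at 0.49. Keeping mixed sub-clusters, chosen after seeing the data, gave 22 pairs over classes, and leaving out shared barcodes, also chosen then, gave 18. No paired analysis was possible because each treatment has 1 library, and no replicate could be left out. Depth limits genes under 100 UMIs, among them Gabre in every class.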
